A study of Bos taurus with 15 samples.

Results

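The circadian clock genes were followed in the thymus of 15 Holstein cows sampled at slaughter, 7 untreated and 8 given prednisolone. Prednisolone, a synthetic glucocorticoid, was given orally each day for 35 days, 30 mg to each cow. The labels give no age, no other agent, no interval since the last dose and no hour of collection for any animal. RNA of each cow was hybridised to an Agilent bovine array of its own, and the replicates are cows. A list of 10 genes was taken (PER1, PER2, PER3, CRY1, CRY2, ARNTL, CLOCK, NR1D1, NR1D2 and DBP), out of 14738 gene symbols on the array. A probe was assigned to a gene where its name on the array, or the symbol in its description, was that of the gene. By this rule 9 of the 10 genes had a probe, each a single probe printed as 2 spots, and NR1D1 had none. A value is the log2 processed signal of a probe minus the 75th percentile of that array's log2 signals, so that 0 is the 75th percentile. Values of different probes cannot be set against each other as levels.

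The clock of mammalian cells is a feedback loop of transcription factors. CLOCK and ARNTL (BMAL1) pair on E-box elements and switch on the PER and CRY genes, whose proteins return to the nucleus and repress the same pair. In a second loop, the nuclear receptors NR1D1 and NR1D2 (REV-ERB) repress ARNTL. DBP is an output factor driven by the pair, and it binds D-box elements in other genes. Glucocorticoid hormone sets the phase of clocks in many peripheral tissues of rodents, and PER1 carries a response element for the glucocorticoid receptor. These roles are known mainly from mouse and human. The array describes each of the 9 bovine probes as similar to the human gene of that symbol, and the names rest on this description. The DBP probe also carries the symbol as its name.

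The arrays lay on 4 slides, which held the groups unevenly. Slide 1 held controls 1, 2 and 5 and prednisolone animal 6. Control 3 and prednisolone animals 3, 5 and 8 shared slide 2, and controls 4, 6 and 7 shared slide 3 with prednisolone animal 1. Slide 4 held prednisolone animals 2, 4 and 7 alone, so that slide and treatment cannot be told apart for these 3 arrays, which also lay at one end of the first principal component (42.5% of the variance). The share of bovine spots well above background was 67.1% to 77.7% per array. Of the T cell markers listed to check the tissue, 10 of 14 had a probe, and all 10 were above background on all 15 arrays, among them CD3E, PTCRA, RAG1 and DNTT. The hybridisations number 15, and this limits the precision. All samples are bulk tissue, in which fewer cells of a type and less RNA per cell cannot be told apart.

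Of the 9 clock genes with a probe, 7 were well above background on all 15 arrays. The probe of PER3 was above background on 13 arrays (5 of 7 control, 8 of 8 prednisolone). That of NR1D2 was above background on 6 arrays (2 of 7 control, 4 of 8 prednisolone). A probe had to be above background on at least 7 arrays to be tested, which left 8 of the 10 genes among 16069 kept probes. No clock probe was saturated on any array. The 2 spots of a probe lay close together for most genes, with a median gap of 0.047 on the log2 scale for PER1 and 0.21 for PER3. For NR1D2 the median gap was 1.36 and the largest 2.59, so its values had little precision. They ran from -7.08 over a median of -6.57 to -6.22 in controls and from -9.06 over -6.52 to -5.08 in prednisolone animals, and were not tested.

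The first comparison asked whether clock transcripts differ between treated and untreated cows. None of the 8 tested clock genes passed (limma, adjusted after Benjamini-Hochberg over the kept probes, threshold 0.05). The share of all kept probes that passed was 0%. Before adjustment, 0 of 8 clock probes had a p under 0.05, against 7.08% of all kept probes. With slide as a fixed block the counts were again 0 of 8, against 9.57%. The values of the 2 groups overlapped for all 8 genes, and 0.118% of kept probes had groups that did not overlap. The difference was above 0 for 3 genes (PER2, PER3 and CRY1) and below 0 for 5, with a median of -0.059 against -0.00044 over all kept probes. The signs of PER3, CRY1 and ARNTL turned under other settings. The median size of the difference was 0.17 for the clock genes and 0.099 for all kept probes, and the median standard error was 0.16 and 0.13.

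The activators showed unlike amounts of spread. ARNTL, the partner of CLOCK, ran from 0.50 over a median of 0.67 to 0.82 in controls. In prednisolone animals ARNTL ran from 0.38 over 0.70 to 0.92, so that the treated animals spanned the control range on both sides. The means were 0.68 ± 0.098 (SD, n = 7) and 0.68 ± 0.18 (SD, n = 8). The limma difference was -0.0032 ± 0.083 (SE), with a 95% interval from -0.18 to 0.17 and an adjusted p of 0.996.

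CLOCK, the DNA-binding partner of ARNTL, ran from -2.29 over a median of -1.69 to -1.27 in controls. In prednisolone animals CLOCK ran from -3.06 over -2.0 to -1.49. The 2 lowest values belonged to prednisolone animals 2 (-3.06) and 4 (-3.02), both on slide 4, while the other slide 4 animal, number 7, had the highest value of its group. The means were -1.75 ± 0.31 (SD, n = 7) and -2.13 ± 0.61 (SD, n = 8). The limma difference was -0.38 ± 0.24 (SE; interval -0.89 to 0.13; adjusted p = 0.772). Without the 3 arrays of slide 4 it was -0.15 ± 0.16, and within slides 1, 2 and 3 it was -0.18, -0.20 and -0.28, each with a single animal on one side. All values of CLOCK are those of a single probe. Another probe, described as similar to clock without the symbol, did not move with it (r = -0.15) and had a difference of 0.089.

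PER1, a repressor and a known direct target of the glucocorticoid receptor, ran from 1.75 over a median of 2.61 to 2.90 in controls. In prednisolone animals PER1 ran from 1.87 over 2.18 to 2.69. Both the lowest and the highest of all 15 values were controls (animal 5 and animal 1), and the treated animals lay between them. The means were 2.42 ± 0.44 (SD, n = 7) and 2.20 ± 0.27 (SD, n = 8), and the limma difference was -0.22 ± 0.18 (SE; interval -0.60 to 0.16; adjusted p = 0.834). It was -0.34 ± 0.21 with slide as a block (adjusted p = 0.660), and -0.56, -0.40 and -0.066 within slides 1, 2 and 3. Each of these slides had a single animal on one side. Prednisolone animal 6 lay above control 5 on slide 1, and prednisolone animal 1 lay above controls 4 and 7 on slide 3.

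PER2, the second repressor of the family, ran from -0.12 over a median of 0.31 to 0.78 in controls. In prednisolone animals it ran from -0.0047 over 0.39 to 0.93. The 2 highest values were prednisolone animal 1 and control 1, 1 from each group. The limma difference of PER2 was 0.11 ± 0.16 (SE; interval -0.23 to 0.45; adjusted p = 0.922). Within slides 1, 2 and 3 it was -0.40, 0.026 and 0.86, so that the slides did not share a sign.

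PER3, the third period gene, lay near the background of the arrays. It ran from -5.79 over a median of -5.00 to -4.32 in controls and from -5.52 over -4.60 to -4.26 in prednisolone animals. Controls 1 and 5 and prednisolone animal 1 had the 3 lowest values. The limma difference was 0.28 ± 0.22 (SE; interval -0.20 to 0.75; adjusted p = 0.834), and it was -0.11 ± 0.22 with slide as a block. A separate probe that the array describes as a period 3 protein, without the symbol, was above background on 15 arrays. Its difference was 0.050, and its correlation with the PER3 probe over the 15 animals was -0.04. The array thus held 2 probes under this description that did not move together, and another was above background on 0 arrays.

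CRY1, a cryptochrome that represses CLOCK and ARNTL, varied least in range among the 8 genes. It ran from -0.19 over a median of -0.012 to 0.25 in controls. In prednisolone animals it ran from -0.13 over 0.00085 to 0.30. The group means were 0.019 ± 0.15 (SD, n = 7) and 0.028 ± 0.16 (SD, n = 8), closer than the spread within either. The limma difference of CRY1 was 0.0090 ± 0.087 (SE), with a 95% interval from -0.18 to 0.19 and an adjusted p of 0.989.

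CRY2, the other cryptochrome, ran from 0.34 over a median of 0.63 to 1.01 in controls and from 0.40 over 0.56 to 0.70 in prednisolone animals. Controls 1 (0.99) and 3 (1.01) stood above all other animals, and control 5 (0.34) stood below them. The limma difference was -0.12 ± 0.097 (SE; interval -0.32 to 0.091; adjusted p = 0.842). On each of the 3 arrays of slide 4, 1 of the 2 CRY2 spots was marked as an outlier by the scanner software and left out. With these spots kept, the values of prednisolone animals 2, 4 and 7 moved from 0.50, 0.60 and 0.40 to 0.21, 0.38 and 0.20, so that animals 2 and 7 lay below control 5. The limma difference of CRY2 was then -0.21 ± 0.11 (adjusted p = 0.735). DBP also had 1 spot left out on each of these arrays, and its difference was -0.38 ± 0.19 with them kept (adjusted p = 0.703).

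DBP, the D-box output factor, ran from 1.22 over a median of 1.68 to 2.01 in controls. In prednisolone animals it ran from 0.74 over 1.29 to 1.81. The 3 lowest values were prednisolone animals 2 and 7, on slide 4, and 1, on slide 3, and the 2 highest were controls 1 and 2, both on slide 1. The means were 1.64 ± 0.27 (SD, n = 7) and 1.32 ± 0.40 (SD, n = 8). The limma difference of -0.32 ± 0.17 (SE; interval -0.68 to 0.044) had the smallest p of the 8 genes, 0.081, with an adjusted p of 0.732. With slide as a block it was -0.17 ± 0.12, and without the arrays of slide 4 it was -0.10 ± 0.16. Within slides 1, 2 and 3 it was -0.093, -0.062 and -0.34.

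**Figure D1:**
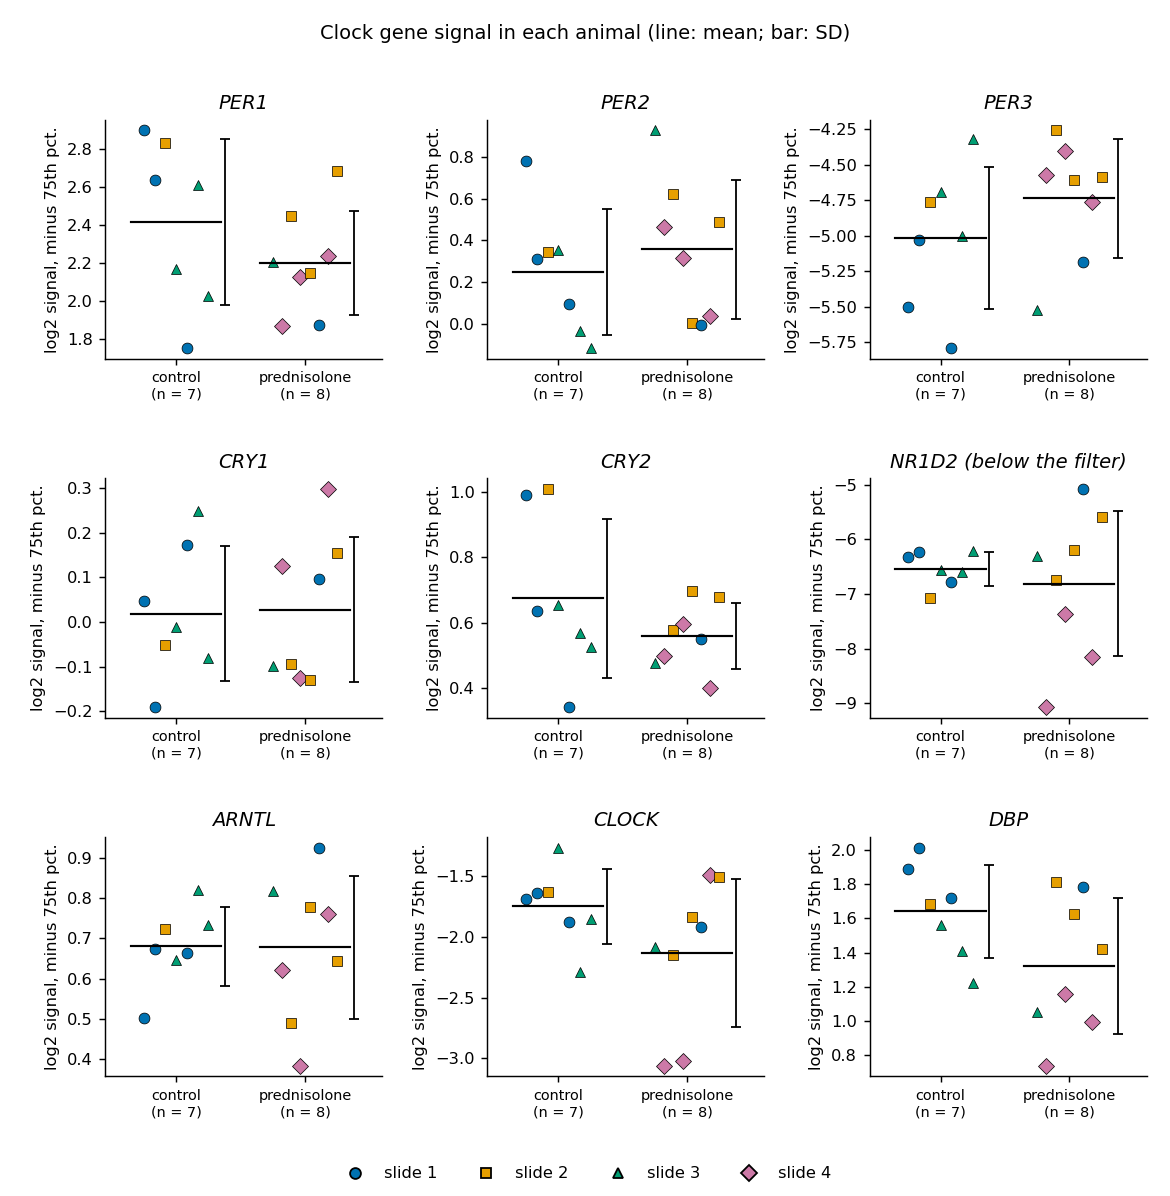
Log2 signal of 9 clock genes minus the array's 75th percentile in each of 7 control and 8 prednisolone animals, with the slide shown by colour and shape, the group mean as a line and the SD as a bar. The groups overlap in every panel, and the 3 slide 4 animals lie at 1.16 or lower for DBP.

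**Figure D2:**
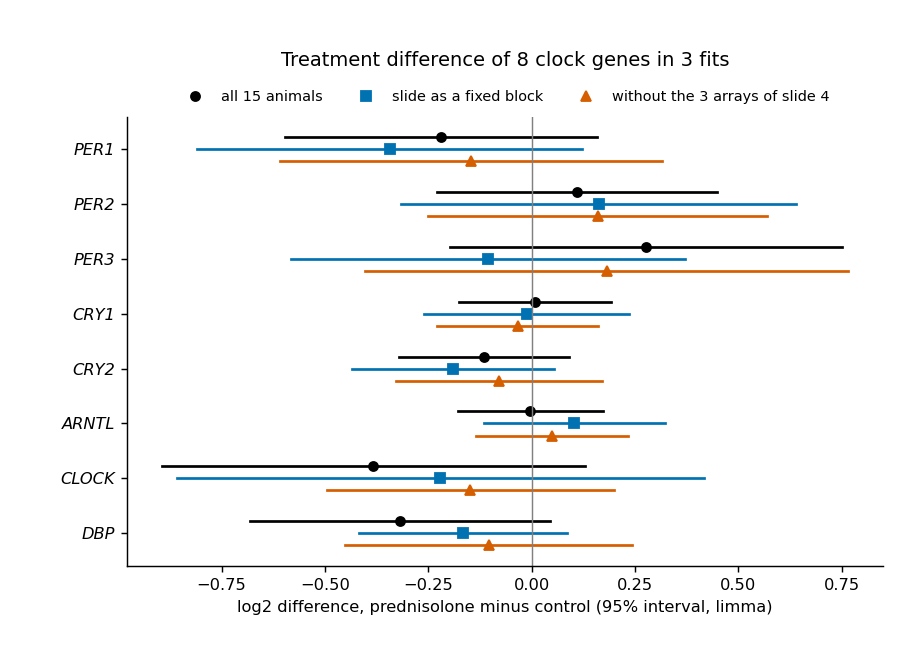
Difference between prednisolone and control animals on the log2 scale with its 95% interval, for 8 clock genes in 3 limma fits. Every interval crosses 0, and the estimates of CLOCK and DBP move from -0.38 and -0.32 to -0.15 and -0.10 when the arrays of slide 4 are left out.

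The clock genes also differed in how far they varied among the 15 animals. CLOCK had an SD of 0.52 and a range of 3.46-fold between the lowest and the highest animal. PER3, whose values lay near the background of the arrays, followed with an SD of 0.46, then DBP with 0.37, PER1 with 0.36 and PER2 with 0.31. These SDs were above the median of all kept probes, 0.26. CRY2 (0.18), CRY1 (0.15) and ARNTL (0.14) lay below it, and the range of CRY1 was 1.4-fold. Differences between neighbours in this order were not tested.

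The second comparison asked how much of this spread followed the slide. DBP was the only clock gene that passed the test between slides with treatment as a covariate (limma F-test, adjusted p = 0.0028), 1 of 8 against 30.6% of all kept probes. Its mean was 1.85 ± 0.13 (SD, n = 4) on slide 1, 1.64 ± 0.16 (n = 4) on slide 2, 1.31 ± 0.22 (n = 4) on slide 3 and 0.96 ± 0.21 (n = 3) on slide 4. Slide held 81.2% of the spread of DBP and treatment 19.8%, 2 shares that overlap because slide 4 held 1 group. Without slide 4 the slide test of DBP had an adjusted p of 0.0286, and with normexp background correction it did not pass (0.087).

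For PER3 the share of the spread between slides was 56.2%, with an adjusted p of 0.0724. PER3 passed with quantile normalization (0.029), median centring (0.032) and the authors' values (0.037). The other shares were 33.3% for CLOCK, 24.8% for CRY2, 19.9% for PER1, 17.7% for ARNTL, 9.23% for CRY1 and 1.44% for PER2. The median over all kept probes was 42.8%, so that 6 of the 8 clock genes lay below it. DBP also correlated with the first principal component, with r = -0.78, where the component is high on slide 4, and CLOCK had r = -0.63. Correlations of DBP with kept probes beyond 0.75 in size made up 7.81% of those probes. For the other 7 genes that share was at most 0.431% (CLOCK). No such share for other kept probes is given here, so that of DBP is not read as unusual for the array.

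The third comparison asked which clock genes moved together across the 15 animals. Of 28 pairs, 1 passed, PER1 with CRY2 (Pearson r = 0.75, permutation p = 0.00057, adjusted over the 28 pairs 0.016). Spearman's rho was 0.65 (permutation p = 0.0103), with an adjusted p of 0.289. A correlation of that size or larger was found with 0.287% of kept probes for PER1 and with 0.237% for CRY2. Controls 1 and 3 were at the top of both genes and control 5 at the bottom of both. Without controls 1 and 3, the 2 animals farthest from the median of PER1, r was 0.54 (permutation p = 0.057, adjusted 0.781), so that the call did not hold without them. It was also lost when control 1, 3 or 5 alone was left out, with r of 0.68, 0.70 and 0.70 and adjusted p of 0.141, 0.103 and 0.0868, and with median centring (r = 0.70, adjusted 0.0938) and normexp background correction (r = 0.40, adjusted 0.445). With slide means subtracted r was 0.69 (p = 0.036 over permutations within slides, adjusted 0.692). Within the 7 controls r was 0.85 (exact permutation p = 0.012, adjusted 0.308) and within the 8 prednisolone animals 0.36 (exact permutation p = 0.382, adjusted 0.780), and the difference between the groups was not tested.

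Markers of T cells had negative correlations with both genes, which did not pass. The mean of the 10 T cell markers ran from 2.74 to 2.96 in controls and from 2.86 to 3.08 in prednisolone animals. Over the 15 animals it had r = -0.72 with PER1 (permutation p = 0.0021, rho = -0.63) and r = -0.76 with CRY2 (permutation p = 0.0014, rho = -0.66). Both had an adjusted p of 0.057 over the 80 relations of 8 clock genes with 10 marker lists, and 0 of the 80 passed. With slide means subtracted the correlations were -0.67 and -0.75, and without the 2 animals farthest from the median of the list they were -0.60 and -0.75. After the mean of the T cell markers was taken out of both genes by linear regression (chosen once these values were known), r between PER1 and CRY2 was 0.46. That value follows from the correlations already given, so it adds no evidence of its own. The part of T cells in this pair was not tested.

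The mean of 6 endothelial markers, all 6 above background on all arrays, had a positive correlation with CLOCK that did not pass. It ran from -3.50 to -2.97 in controls and from -3.59 to -2.87 in prednisolone animals, with r = 0.71 to CLOCK (permutation p = 0.0020, rho = 0.60, adjusted p = 0.057). With slide means subtracted r was 0.55, and without the 2 animals farthest from the median of the list 0.45. Endothelial markers had r = 0.53 with PER1 and 0.54 with CRY2 (permutation p = 0.045 and 0.036, rho = 0.57 and 0.54, both adjusted 0.451). The mean of 8 macrophage markers, all 8 above background on all arrays, ran from 0.41 to 1.43 in controls and from 0.063 to 1.17 in prednisolone animals. It had r = 0.64 with CLOCK (permutation p = 0.011, rho = 0.46, adjusted 0.227), 0.55 with PER1 and 0.53 with CRY2 (permutation p = 0.031 and 0.041, rho = 0.55 and 0.48, both adjusted 0.451). The part of these markers in the values of the clock genes was not tested.

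With the CLOCK probe used here, the textbook partners did not form a pair that passed. CLOCK and ARNTL had r = 0.33 (permutation p = 0.224, adjusted 0.594), and -0.29 without the arrays of slide 4. Within the 7 controls r was -0.56 (exact permutation p = 0.178, adjusted 0.499). Within the 8 prednisolone animals it was 0.57 (exact permutation p = 0.137, adjusted 0.780). The difference between the groups was not tested. The next pairs by size were CLOCK with DBP, CRY2 with DBP and PER2 with ARNTL. CLOCK with DBP had r = 0.50 (permutation p = 0.056, rho = 0.24, adjusted 0.594), which fell to 0.02 without prednisolone animals 2 and 4, both on slide 4. CRY2 with DBP had r = 0.46 (permutation p = 0.085, rho = 0.47, adjusted 0.594). It had r = 0.70 (permutation p = 0.0039, adjusted 0.054) with the outlier spots of slide 4 kept. With the authors' values, which keep these spots too, r was 0.71 and the pair passed (adjusted 0.045). With slide means subtracted r was 0.33 (p = 0.185 over permutations within slides, adjusted 0.692).

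PER2 and ARNTL, a repressor and the activator it acts on, had r = -0.44 (permutation p = 0.104, rho = -0.57, adjusted 0.594). With slide means subtracted r was -0.48 (p = 0.073 over permutations within slides, adjusted 0.692). Within the 7 controls it was -0.86 (exact permutation p = 0.022, adjusted 0.308). Within the 8 prednisolone animals it was -0.28 (exact permutation p = 0.494, adjusted 0.780). The sign was the same in each of these settings, and the pair passed in none of them. Prednisolone animal 1 was high for both genes, with 0.93 for PER2 and 0.82 for ARNTL. Without it the correlation was -0.73 and passed (adjusted p = 0.041), and without it and control 1 it was -0.69 (permutation p = 0.0073, adjusted 0.204). Prednisolone animal 1 is named for that result. With each of the 15 animals left out in turn, r ran from -0.73 to -0.34, and the pair passed in this 1 case only.

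**Figure D3:**
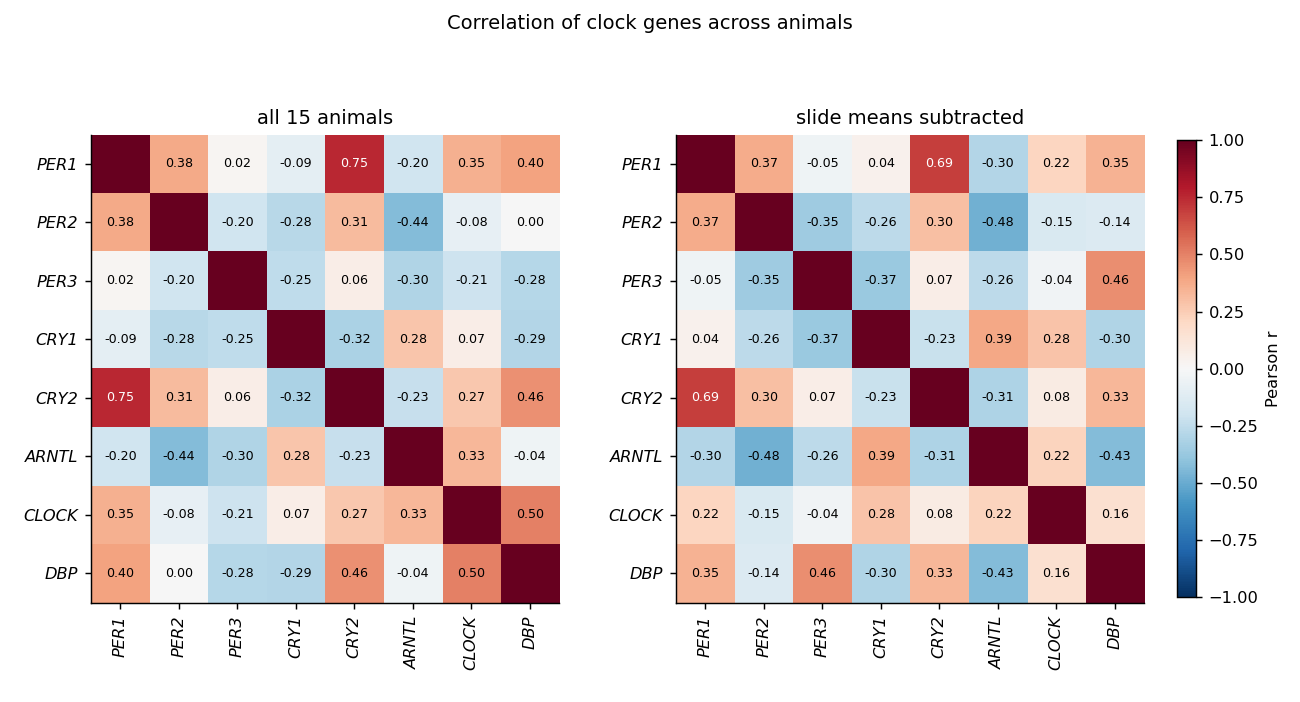
Pearson r between each pair of 8 clock genes over all 15 animals (left) and after the mean of each slide was subtracted (right), with colour from -1 to 1. PER1 with CRY2 has the largest r in both, 0.75 and 0.69.

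**Figure D4:**
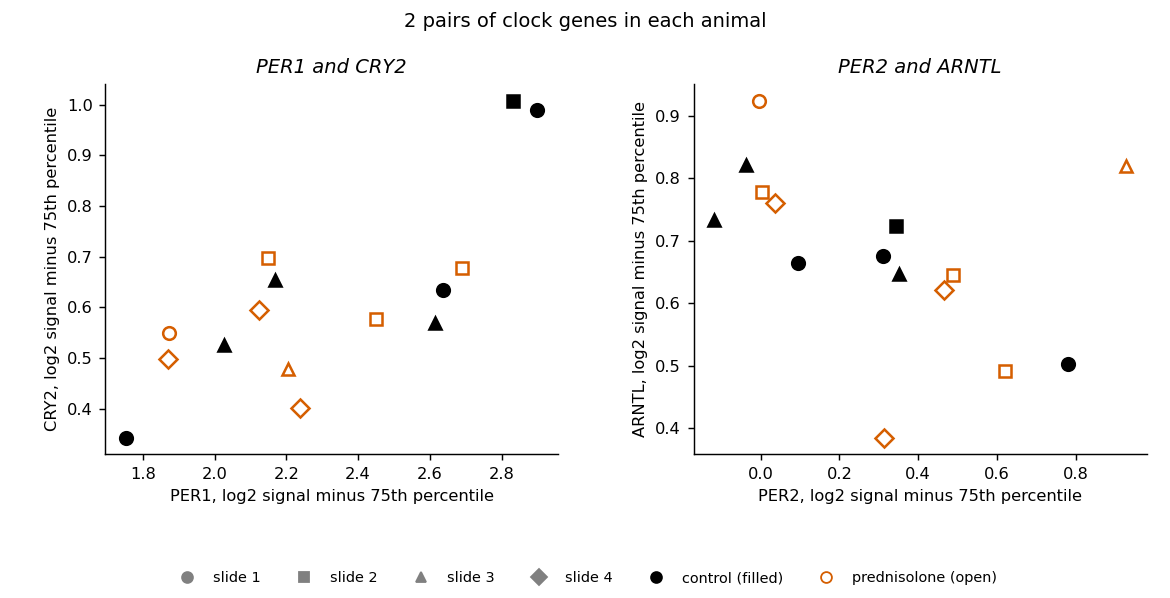
Log2 signal minus the array's 75th percentile in each animal for PER1 with CRY2 (left) and PER2 with ARNTL (right), with controls filled, prednisolone animals open and slides by shape. Controls 1 and 3 lie at the upper right of the left panel, and prednisolone animal 1 lies alone at the upper right of the right panel.

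Other clock-related genes came from a list of 36, of which 30 were kept. CIART had no probe, and the probes of NPAS2, RORB, NFIL3, FBXL21 and PPARA were above background on too few arrays. With the brightest probe of each, none of the 30 passed between treatments, beside 0% of all kept probes, and 1 had an unadjusted p under 0.05, beside 7.08% of all kept probes. That probe was higher with prednisolone for 18 and lower for 12, with a median difference of 0.024 against -0.00044 over all kept probes. Among the brightest probes the smallest p was that of PROK2, a secreted clock output peptide, at -0.40 ± 0.15 (SE; limma adjusted p = 0.655). BHLHE40 (DEC1), which represses CLOCK and ARNTL targets, followed at 0.32 ± 0.16 (limma adjusted p = 0.701), with means of -0.29 ± 0.44 (SD, n = 7) in controls and 0.030 ± 0.15 (SD, n = 8) in prednisolone animals. TEF, a D-box factor of the same family as DBP, came next at 0.16 ± 0.082 (limma adjusted p = 0.718).

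Probes of 1 gene could disagree. The brighter probe of USP2, a deubiquitinase under clock control in mouse, had a difference of 0.022 ± 0.14 and the dimmer one 0.38 ± 0.10 (limma adjusted p = 0.464). With slide as a block the dimmer USP2 probe was at 0.20 (limma adjusted p = 0.562). The brighter probe of HLF, another D-box factor, had a difference of 0.22 ± 0.13 and the dimmer one -1.03 ± 0.44 (adjusted p = 0.688). With slide as a block the dimmer HLF probe was at -0.23, and it differed between slides (limma F-test, adjusted p = 1.4e-05). Both dimmer probes had low signal, which limits these comparisons. Control and prednisolone means were -5.28 and -4.90 for USP2 and -4.71 and -5.74 for HLF. The dimmer HLF probe was above background on 13 arrays. These 2 genes were singled out after their values were seen.

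Of 240 pairs of a clock gene with one of these 30 genes, 0 passed. The smallest adjusted p was 0.081, and 2 of the pairs at that value are given here. DBP with TIMELESS, a replication fork factor, had r = 0.80 (permutation p = 0.00051, rho = 0.78), which became 0.15 with slide means subtracted. TIMELESS itself differed between slides (limma F-test, adjusted p = 0.0022). CRY1 with BTRC, an F-box protein that targets PER proteins, had r = 0.76 (permutation p = 0.00085, rho = 0.63), and 0.85 with slide means subtracted. Without the 2 animals farthest from the median of the clock gene these were 0.69 and 0.51.

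PER1 was also set beside KLF9, FKBP5 and TSC22D3 (GILZ), 3 genes that glucocorticoids induce in many cells. These pairs were singled out from the 240 after their values were seen, and none passed. PER1 with TSC22D3 had r = 0.71 (permutation p = 0.0039, rho = 0.64, adjusted 0.156), with the TSC22D3 probe above background on 7 arrays only. PER1 with KLF9 had r = 0.62 (permutation p = 0.016, rho = 0.61, adjusted 0.285) and PER1 with FKBP5 had r = 0.60 (permutation p = 0.020, rho = 0.55, adjusted 0.285). With slide means subtracted both were 0.79, and without controls 1 and 3 they were 0.38 and 0.36. In the 7 controls r was 0.93 for KLF9 and 0.89 for FKBP5, and in the 8 prednisolone animals it was -0.36 and -0.18. For TSC22D3 it was 0.80 and 0.34, with no turn of sign. These differences between the groups were not tested. The correlations within groups were taken without slide means subtracted, and slide 4 held 3 of the 8 prednisolone animals. Slide and treatment cannot be told apart in them. The treatment differences of the genes themselves were -0.17 ± 0.16 for KLF9, -0.33 ± 0.38 for FKBP5 and -0.58 ± 0.50 for TSC22D3 (SE). Their limma adjusted p were 0.856, 0.896 and 0.850. With slide as a block the differences were -0.39, -1.07 and -0.87 (limma adjusted p = 0.576, 0.374 and 0.658).

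**Figure D5:**
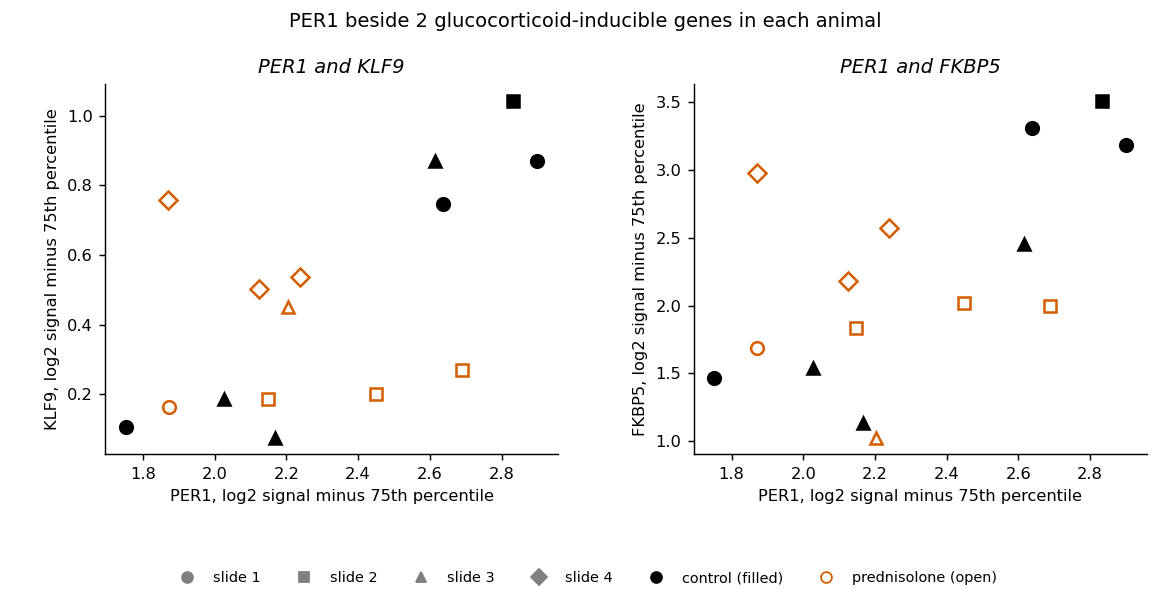
Log2 signal minus the array's 75th percentile of PER1 (horizontal) with KLF9 (left) and FKBP5 (right) in each animal, with controls filled, prednisolone animals open and slides by shape. Controls 1, 2, 3 and 6 lie above the other 3 controls in both panels, and the slide 4 animals lie above the other prednisolone animals.

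The genes most like each clock gene were taken as the 2 with the highest r over the 15 animals among all kept probes. These are given without p, since they were chosen for their r. For PER1 they were ARRDC2, an arrestin-domain protein (r = 0.89, and 0.92 with slide means subtracted), and BMF, a BH3-only protein of the BCL2 family (0.88 and 0.93). CRY2 had KLHL25, a Kelch adaptor (0.83 and 0.83), and again ARRDC2 (0.81 and 0.76). PER2 had WDR59 (0.81 and 0.82) and ARHGEF18 (0.77 and 0.88). CRY1 had AFTPH, a clathrin trafficking protein (0.88 and 0.87), and RAB18, a small GTPase (0.84 and 0.85). CLOCK had GADD45A, a stress-induced growth arrest gene (0.87 and 0.88), and DCLK3, a kinase (0.87 and 0.82). Without the arrays of slide 4, r of CLOCK with DCLK3 was 0.53, and the DCLK3 probe was above background on 13 arrays.

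ARNTL had the lowest correlations of this kind, with OR10K2, an olfactory receptor gene (0.80 and 0.80), and SLAMF1, a lymphocyte receptor (0.75 and 0.73). PER3 had IL6, a cytokine whose probe was above background on 8 arrays (0.89 and 0.77), and NAGPA, a lysosomal targeting enzyme (0.85 and 0.75). DBP had the highest, with DOK2, an adaptor of blood cells (0.99 and 0.97), and GAST, the gene of gastrin (0.98 and 0.95). DOK2 and GAST had r of -0.85 and -0.86 with the first principal component, beside -0.78 for DBP.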

How the data were processed

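Spot intensity was read from the deposited scanner files, which Feature Extraction 9.5.1.1 had written, per the file headers. Its processed signal is background-subtracted and detrended, and its flags mark spots above background, saturated or outlying, per the file headers. A second deposited file is the authors' own table of intensity. Its columns had medians from 188.5 to 274.1 and ranked spots as the processed signal did (correlation 0.99963 or more per array). The scale of that table is linear, its direction that of the signal, and its centring unknown. R 2.11.1 is the one tool in the submitters' processing notes.

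The log2 processed signal of the 42990 bovine spots was centred on each array's 75th percentile, outlier spots were left out, and spots of a probe were averaged. Of 21475 bovine probes, 16420 had a gene symbol, through gene number, accession or description matched to RefSeq's cattle genes (assembly ARS-UCD2.0). Differences between groups and between slides were fitted by limma 3.58.1 (R 4.3.3) over 16069 kept probes, and correlations tested with 100000 permutations of animals (all permutations within a group) (smallest possible p 1e-05). Each calculation was tested on simulated data.

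The members, gene lists, tests and naming rules were chosen with earlier results of these data known. All members were named, with the 4 largest pairs, the 3 accessory genes of smallest p and, for each member, the 2 most similar genes. Relations with the marker lists and the regression on T cell markers were added after the data were seen. Nothing in the labels says that the animals were sampled in pairs. The labels carry no build, so no coordinates are given, and no probe sequence was used here. Of the accessory pairs at the smallest adjusted p, 1 is not reported here.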

Additional observations from a re-analysis of the deposited data

How the results depend on the processing

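No clock probe passed between treatments under any of the 28 alternatives, each animal left out included. The share of all kept probes that passed was 0% in the main fit and 0% with slide as a fixed block. The shares under the other alternatives are not given here, so this count says nothing particular to clock genes. The sign of the treatment difference on the log2 scale turned for 4 probes, none of them called. ARNTL was at 0.019 with median centring, 0.046 with normexp, 0.10 and 0.056 with slide as a fixed or random block, 0.050 without slide 4 and 0.013 with array weights. CRY1 was at -0.0011 with the authors' values, -0.076 with normexp, -0.012 and -0.0011 with the fixed and random block, -0.034 without slide 4 and -0.018 with array weights. PER3 was at -0.66 with normexp and -0.11 with the fixed block, and the dimmer USP2 probe at -0.63 with normexp. With each animal left out in turn, CRY1 ranged from -0.030 to 0.047 and ARNTL from -0.038 to 0.039. The count of clock pairs that passed, 1, became 0 with median centring, normexp, slide or group means subtracted, controls or prednisolone animals alone, Spearman, and the 2 farthest animals left out. It was 2 with the authors' values, where CRY2 with DBP (r = 0.71, adjusted p = 0.045) joined PER1 with CRY2. With each animal left out it ranged from 0 to 2, and pairs with accessory genes from 0 to 3. The count of probes that differed between slides, 1, was 2 with quantile normalization, median centring and the authors' values, where PER3 joined DBP, and 0 with normexp. With each animal left out it ranged from 1 to 2: PER3 passed without prednisolone animal 1 (adjusted p = 0.030) and CLOCK without prednisolone animal 7 (adjusted p = 0.015). In the main setting 30.6% of all kept probes differed between slides. The shares under the other settings are not given here, so these counts are not read as particular to clock genes. With normexp, PER3 with NAGPA had r = -0.84 and ARNTL with OR10K2 r = -0.026. In the same setting r was 0.61 for CLOCK with GADD45A, 0.45 for CRY2 with ARRDC2 and 0.37 for PER2 with ARHGEF18. It was 0.99 for PER3 with IL6. Without slide 4, CLOCK with DCLK3 had r = 0.53. The cause of these changes was not tested. No paired analysis was possible because the replicate numbers were given in accession order and pair no animals. Low signal over background limits PER3 and NR1D2, and 15 arrays on 4 slides, 1 of them without controls, limit the rest.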

Other observations

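No group of 7 or 8 values of a clock gene held a single animal apart from the rest by Dixon's test at the 95% level (0 of 18 tests). A probe described as similar to clock, without the symbol, was above background on all 15 arrays, with a treatment difference of 0.089 and r = -0.15 to the CLOCK probe.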
